A study of Mus musculus with 10 samples.

Results

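The 8 receptor genes described here were taken by symbol: the somatostatin receptors Sstr1, Sstr2, Sstr3 and Sstr5, the PACAP receptor Adcyap1r1, the VIP receptors Vipr1 and Vipr2, and the oxytocin receptor Oxtr, out of 55416 genes in the count table. All 8 were found, and 7 passed the filter on low counts (Vipr1 did not). RNA bound to Musashi1 and Musashi2 was recovered from mouse pituitary lysates with the 2 antibodies pooled (Musashi IP), and compared with RNA recovered from the other part of each lysate with control rabbit IgG, to ask which pituitary RNAs the proteins bind. Each lysate was made from 6 pituitaries, so every library is a pool of animals. The mice were sighted FVB (FVB.129P2-Pde6b+Tyrc-ch/Ant), 8 to 10 weeks old, described as controls, and IgG and Musashi IP libraries share strain and age. There were 5 lysates and 10 libraries: lysates 2, 5 and 6 from females and lysates 3 and 7 from males.

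Pituitary hormone cells read hypothalamic peptides through G protein-coupled receptors. Somatostatin receptors couple mainly to inhibitory G proteins, lower cyclic AMP and hold back secretion of growth hormone and thyrotropin. The PACAP receptor and both VIP receptors belong to the secretin receptor family and raise cyclic AMP through the stimulatory G protein, and the oxytocin receptor acts through the Gq class and phospholipase C and is known on lactotropes, the prolactin cells. Musashi proteins bind short motifs, mainly in 3' UTRs (3' untranslated regions), and alter the translation of the mRNAs that carry them.

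Of the 7 tested receptors 6 were enriched in Musashi IP over IgG and 0 were lower, with a median log2 fold change of 0.99 (edgeR quasi-likelihood test with the lysate as a block, Benjamini-Hochberg adjusted p under 0.05 over 20550 genes). The background called higher was 18.5% of all genes tested and 25.7% of the 14202 protein-coding genes tested. Called lower were 8.40% of all genes tested and 569 of these 14202 protein-coding genes, and the medians were -0.066 and 0.089. The PACAP receptor Adcyap1r1 rose most, 2.77-fold. Sstr1, Sstr5 and Oxtr rose about as much as each other (1.99-, 2.0- and 2.07-fold), Sstr3 rose 1.78-fold and Vipr2 1.71-fold, and Sstr2 did not pass. The Vipr2 call held under 1 of 14 other settings.

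Totals ran from 6.67 to 13.0 M counts, so that 1 count in the shallowest library equals 0.135 CPM (counts divided by library size in M, here after TMM scaling). Over all genes 3804 were called higher and 1727 lower. Scaling by library totals alone, which moves the median over all genes by -0.18 in log2, gave 3153 higher and 4068 lower. The spread of the antibody effect differed between lysates: the 90th percentile of log2 ratios over the genes tested was 1.59 in lysate 6, 0.91 in lysate 5, 0.86 in lysate 7, 0.65 in lysate 3 and 0.57 in lysate 2. Pituitary identity was plain in every library, with 12960 to 51216 CPM summed over 7 hormone mRNAs in IgG and 14289 to 39676 in Musashi IP. Lhb, one of them, was at 0 counts throughout, and whether its mRNA was absent or its reads went uncounted was not tested. Lysate 2 stood apart in IgG, where 7 markers of endothelial, mural and immune cells summed to 338 CPM against at most 130 in the other IgG libraries and 106 in its own Musashi IP library. The excess lay in the endothelial and mural markers, such as Kdr at 124 CPM against at most 44.7 in the other IgG libraries. Of the immune markers, Ptprc was at 13.6 CPM, within the other IgG libraries (12.4 to 18.7), and Csf1r at 22.3 against at most 19.4. Oxytocin (Oxt) and vasopressin (Avp), peptides of posterior lobe axons, had 18 counts or fewer and 23 or fewer in each library.

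The longest annotated 3' UTR of each receptor was searched, on the transcript strand only, for the Musashi motif, which begins with G or A, goes on with a short run of T and ends in AGT (T stands for U in the RNA). The forms searched that begin with G were GTAGT, with another T GTTAGT, and with a further T GTTTAGT. Those that begin with A were ATAGT, with another T ATTAGT, and with a further T ATTTAGT. Matches were found in 6 of the 8 genes, and those of the 5 enriched receptors that have one are shown to set the motif beside the enrichment. Each line gives 30 bases, 5′ to 3′, from the GENCODE M21 transcript, with the motif in capitals.
Adcyap1r1, site 1, base 1284 of 4280 of the 3' UTR: gggggaaaaaaaGTAGTgccatggggccac
Adcyap1r1, site 2, base 2529 of 4280: tgaccttcttacATAGTgcaagcaataaga
Oxtr, site 1, base 692 of 3391: acacacatgcaaGTAGTctctctctctctc
Oxtr, site 2, base 764 of 3391: atgagaagcaagGTTAGTgtcagatcaatg
Oxtr, site 3, base 1989 of 3391: ggtcacaactgaATAGTggctttctgcctg
Sstr1, site 1, base 95 of 413: ggtgctgaagtcATAGTgcatgacagcgat
Sstr1, site 2, base 385 of 413: tccagtcttggtATAGTaccacacatatgc
Sstr3, site 1, base 504 of 2251: cctaaaggaagtGTTAGTtggcgctgtggg
Sstr3, site 2, base 960 of 2251: gagggagatgagGTAGTaggaagagggtgg
Sstr3, site 3, base 1652 of 2251: tggcaaggatacATAGTggcaaggatacaa
Vipr2, site 1, base 1842 of 1951: aatagcagaggtGTAGTaaccatatgacca
No line can be given for Sstr5 (3' UTR of 1290 bases) or Sstr2 (662 bases), which held no match, while Vipr1 held 3 in 3389 bases.

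The number of matches did not order the receptors by enrichment. Adcyap1r1, the most enriched, held 2 matches, where genes with a 3' UTR within 20% of its length had a median of 8 and 97% of them held at least 2. Sstr5 rose 2.0-fold with 0 matches, against a median of 2 and at least 1 match in 81.6% of 3' UTRs of like length. Sstr1 had the densest 3' UTR, with 2 matches in 413 bases; 38.4% of 3' UTRs of like length held any match and 13.2% held at least 2. Oxtr and Sstr3 held 3 each, against medians of 6 and 4, and Vipr2 held 1 against a median of 3. At least 1 match stood in 73.0% of the 3' UTRs of 14127 tested protein-coding genes. A match is a run of letters in the annotated sequence and no measured binding site. The numbers hold for the GENCODE M21 3' UTRs, which may be shorter than those of the annotation used for counting.

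Levels of different genes were compared per length, as CPM per kilobase of exon. No library holds RNA of the lysate before immunoprecipitation. The IgG values are thus levels in RNA carried over with control IgG, not measured levels in the gland. In the IgG libraries the order was Sstr1 (5.0 ± 1.33, mean ± SD, n = 5), Sstr3 (4.39 ± 1.26), Adcyap1r1 (4.14 ± 1.02), Sstr5 (3.12 ± 1.26), Oxtr (1.69 ± 2.38), Sstr2 (1.15 ± 0.526), Vipr2 (0.434 ± 0.280) and Vipr1 (0.0885 ± 0.0611). The first 4 overlapped one another in their single libraries. Oxtr ran from 0.0821 to 5.79 and so overlapped all the rest, Sstr2 overlapped Vipr2, and the lowest Vipr2 library (0.182) lay above the highest Vipr1 library (0.157). In Musashi IP, Adcyap1r1 came first at 12.2 ± 5.92, ahead of Sstr1 at 10.6 ± 5.86, with overlapping libraries.

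**Figure D1:**
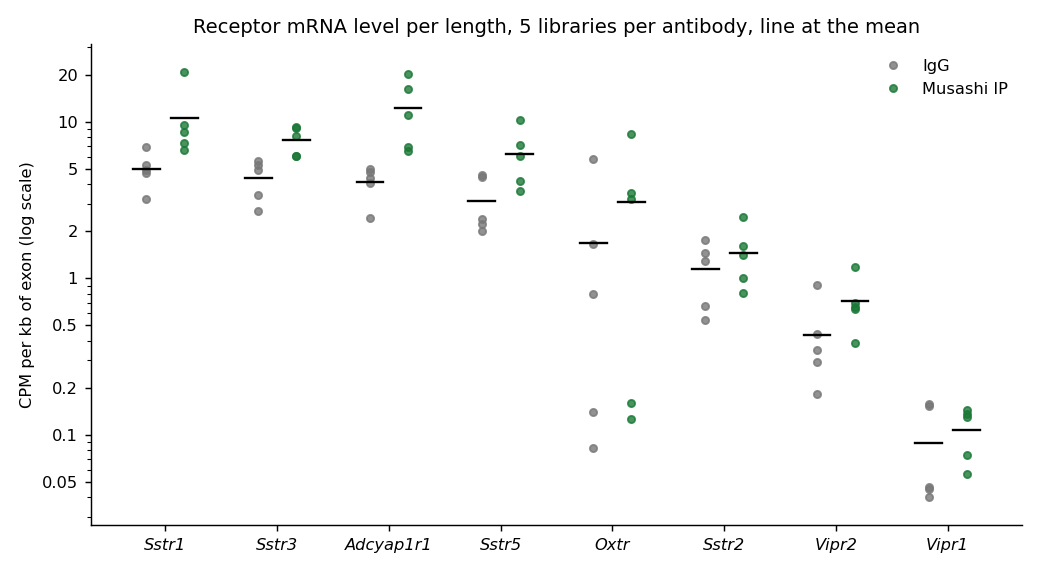
CPM per kilobase of exon (log axis) for the 8 receptors, ordered by their IgG mean; points are the 5 IgG (grey) and 5 Musashi IP (green) libraries and lines are means. Sstr1, Sstr3, Adcyap1r1 and Sstr5 sit between 2.0 and 6.92 in IgG, Vipr1 lies under 0.16, and Oxtr spans more than any of the rest.

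Adcyap1r1 (ENSMUSG00000029778, chromosome 6) encodes the receptor that prefers PACAP, a hypothalamic peptide that acts on gonadotropes, folliculostellate and other pituitary cells. Its CPM in IgG was 29.1, 32.9, 16.0, 26.9 and 31.7 in lysates 2, 3, 5, 6 and 7, and in Musashi IP 42.9, 73.6, 45.9, 132 and 108. Every Musashi IP library lay above every IgG library, as for 9.70% of genes tested, and lysates 6 and 7 were highest. The log2 fold change was 1.47 ± 0.22 (SE, n = 5 lysates, edgeR adjusted p = 0.00412), and 3.66% of protein-coding genes tested had a larger one. This call held under all 14 other settings, between 1.19 after correction for length and GC content and 1.74 without lysate 2.

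Adcyap1r1 had the largest log2 ratio of the 8 receptors in lysates 3, 5, 6 and 7. In lysate 2 it stood at 0.56, below Sstr5 (1.02) and Vipr2 (0.90). Its ratio exceeded that of Sstr1 by 0.48 ± 0.24 and that of Sstr2 by 1.11 ± 0.20 (mean ± SD over lysates), in 5 of 5 lysates each. Each of these 2 differences had p = 0.0625 in a two-sided exact sign-flip test, and 0.146 after Benjamini-Hochberg adjustment over 28 receptor pairs. As 0.0625 is the smallest p that 5 lysates allow, no pair could pass.

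Vipr2 (ENSMUSG00000011171, chromosome 12) encodes a receptor that binds VIP and PACAP alike. It was counted 14, 30, 10, 7 and 15 times in IgG in lysates 2, 3, 5, 6 and 7 and 26, 49, 16, 30 and 33 times in Musashi IP. In CPM that was 1.57, 4.04, 1.3, 0.812 and 1.97 against 3.11, 5.32, 1.73, 2.94 and 2.84, higher in 5 of 5 lysates but with overlapping groups. The log2 fold change of 0.77 ± 0.25 just passed (edgeR adjusted p = 0.0481). Under 13 of the 14 other settings it ran from 0.57 to 0.84 and did not pass (edgeR, DESeq2 or limma adjusted p 0.0535 to 0.263), and without the low-count filter it passed at 0.79.

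Vipr1 (ENSMUSG00000032528, chromosome 9), the other VIP receptor, had 2 to 8 counts per library, 21 in all IgG libraries together and 30 in all Musashi IP libraries. It was higher in Musashi IP in lysates 3, 6 and 7 and lower in lysates 2 and 5. Without the filter its log2 fold change was 0.35 ± 0.52 (edgeR adjusted p = 0.771) and did not pass.

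Among the somatostatin receptors, Sstr1, Sstr3 and Sstr5 rose and Sstr2 did not pass. Per length, Sstr1 made up 36.6 ± 9.35% of the summed counts of the 5 somatostatin receptors in IgG, Sstr3 31.1 ± 4.72%, Sstr5 21.9 ± 5.52%, Sstr2 7.99 ± 2.82% and Sstr4 2.43 ± 1.2% (SD, n = 5). In Musashi IP, Sstr2 made up 5.45 ± 1.66% and Sstr1 38.9 ± 11.2%, with libraries that overlapped those of IgG. Sstr4, which is no member of the set, had 2 to 12 counts per library and was not tested.

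Sstr5 (ENSMUSG00000050824, chromosome 17), a receptor of somatotropes and corticotropes, was at 5.48, 12.1, 6.10, 6.50 and 12.5 CPM in IgG in lysates 2, 3, 5, 6 and 7 and at 11.4, 19.5, 9.94, 16.6 and 28.2 CPM in Musashi IP. Male lysates 3 and 7 were highest on both sides, so the groups overlapped while each pair rose. Its log2 fold change of 1.0 ± 0.14 (edgeR adjusted p = 0.00382) had the smallest SE of the 7 receptors tested, and its ratios varied least between lysates (0.68 to 1.32). Without the lysate block it did not pass (1.0 ± 0.33, edgeR adjusted p = 0.0648).

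Sstr1 (ENSMUSG00000035431, chromosome 12) was at 10.1, 14.2, 9.60, 10.8 and 6.56 CPM in IgG and at 13.5, 19.4, 17.7, 42.7 and 14.9 CPM in Musashi IP, in the same order of lysates. Lysate 6 was far above the rest in Musashi IP, and lysate 2 in Musashi IP lay below the highest IgG library. The log2 fold change was 0.99 ± 0.23 (edgeR adjusted p = 0.0148), 0.72 without lysate 6 (0.00579) and 1.02 without lysate 5, where it did not pass (0.0578).

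Sstr3 (ENSMUSG00000044933, chromosome 15), a somatostatin receptor also found on primary cilia, was at 21.2, 24.1, 11.7, 14.7 and 22.9 CPM in IgG and at 26.2, 35.2, 26.0, 39.9 and 39.3 CPM in Musashi IP. All Musashi IP libraries lay above all IgG libraries. The log2 fold change of 0.84 ± 0.17 passed (edgeR adjusted p = 0.00959). It did not pass without lysate 5 (0.76, adjusted p = 0.0526).

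Sstr2 (ENSMUSG00000047904, chromosome 11), the receptor best known for somatostatin's brake on growth hormone, had 10 to 29 counts per library in IgG and 16 to 61 in Musashi IP. In CPM it stood at 2.80, 3.1, 1.43, 1.16 and 3.8 against 2.15, 3.04, 1.73, 3.43 and 5.26, higher in Musashi IP in lysates 5, 6 and 7 and lower in 2 and 3. The log2 fold change was 0.36 ± 0.27 (edgeR adjusted p = 0.335) and passed under none of 14 other settings (0.11 to 0.58). Its ratio was below that of Sstr1 in 5 of 5 lysates (Sstr1 minus Sstr2 0.63 ± 0.11) and below that of Sstr3 in 5 of 5 (Sstr2 minus Sstr3 -0.49 ± 0.33), each with p = 0.0625 and adjusted p = 0.146 in the exact sign-flip test. It was below that of Sstr5 in 4 of 5 (-0.63 ± 0.52, exact p = 0.125, adjusted 0.219). With 5 lysates p in this test cannot fall below 0.0625, so none of these differences could pass.

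Oxtr (ENSMUSG00000049112, chromosome 6) was at 27.7, 7.91 and 3.83 CPM in IgG and 40.3, 16.9 and 15.4 CPM in Musashi IP in female lysates 2, 5 and 6. In male lysates 3 and 7 it had 5 and 3 counts in IgG and 7 and 7 in Musashi IP. It was higher in Musashi IP in 5 of 5 lysates, by log2 0.54, 1.07 and 1.94 in females and 0.13 and 0.42 in males. The log2 fold change was 1.05 ± 0.25 (edgeR adjusted p = 0.0169). It did not pass without the block (0.84, 0.635) or without lysate 5 (1.03, 0.0799), and it was 1.41 without lysate 2 and 0.73 without lysate 6, passing in both.

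**Figure D2:**
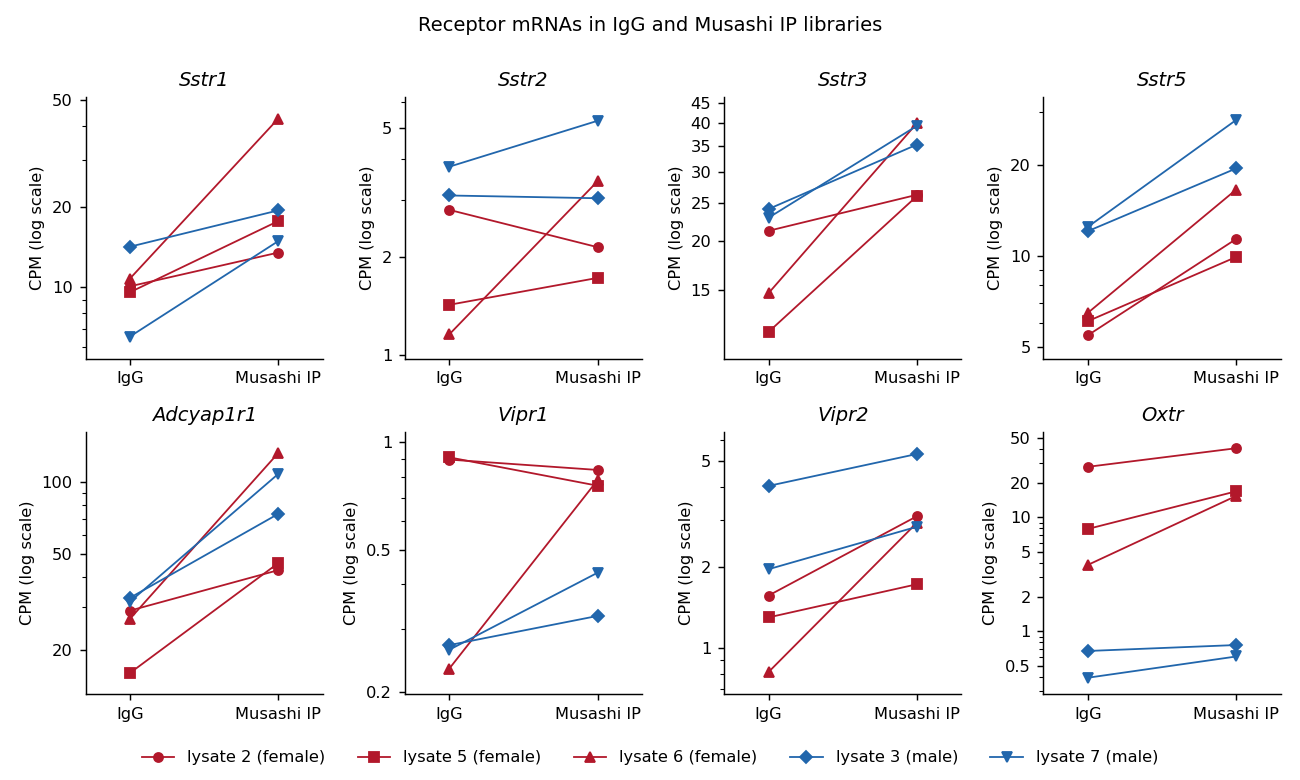
CPM (log axis, its own range in each panel) of the 8 receptors in IgG and Musashi IP, with a line joining the libraries of each lysate, females in red and males in blue. All 5 lines rise for Sstr1, Sstr3, Sstr5, Adcyap1r1, Vipr2 and Oxtr; 2 of 5 fall for Sstr2 and 2 of 5 for Vipr1; the male Oxtr lines lie under 1 CPM.

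All 8 receptors had their largest ratio in lysate 6, from 1.14 for Vipr1 to 2.29 for Adcyap1r1, the lysate with the widest spread over all genes as well. Lysate 2 gave the smallest ratio for Sstr1 (0.42), Sstr3 (0.30), Sstr2 (-0.35) and Adcyap1r1 (0.56). It did not for Sstr5 (1.02), Vipr2 (0.90), Oxtr (0.54) or Vipr1 (-0.076). Of the 7 tested receptors 6 were higher in all 5 lysates, against 22.4% of all genes tested. That share was not computed for protein-coding genes alone, which were called higher more often than all genes (25.7% against 18.5%). Whether the endothelial and mural excess in lysate 2 has a part in its smaller ratios for Sstr1, Sstr2, Sstr3 and Adcyap1r1 was not tested. Without lysate 2, 5 receptors were called higher and Sstr2 stood at 0.58.

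**Figure D3:**
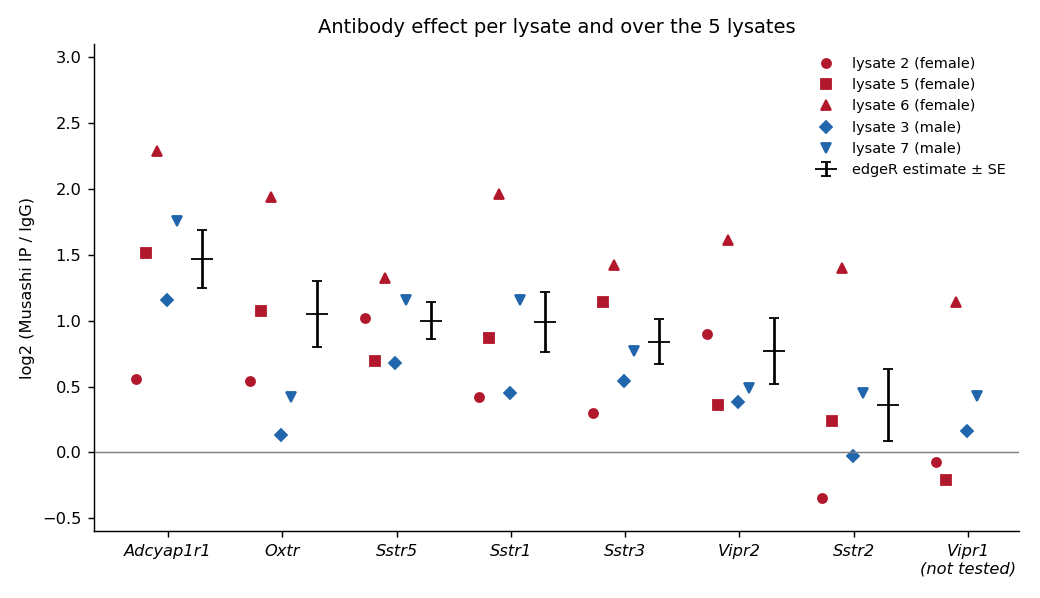
Log2 ratio of Musashi IP to IgG for each receptor: coloured symbols are single lysates, black bars the edgeR estimate ± SE over 5 lysates (none for Vipr1, which was not tested). Lysate 6 (triangle) is highest for all 8, and Adcyap1r1 has the highest estimate at 1.47.

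**Figure D4:**
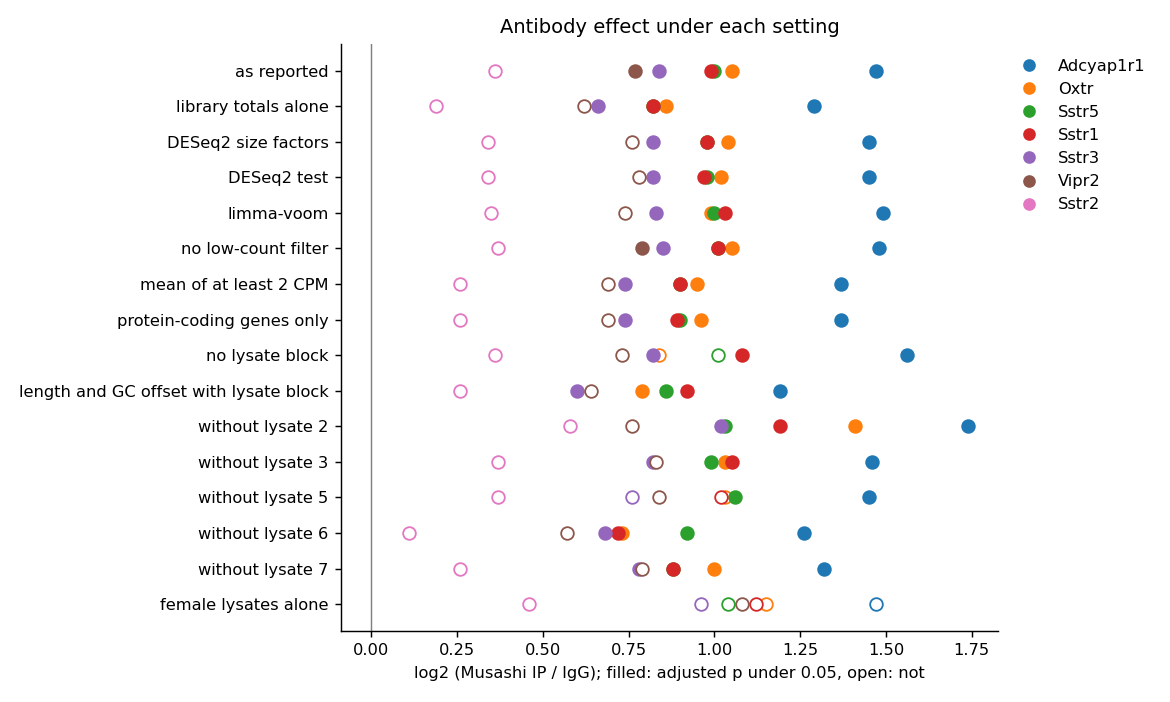
Log2 fold change of the 7 tested receptors (x axis) under the reported fit and each other setting (y axis), filled where adjusted p was under 0.05 and open where not. All estimates are above 0; Adcyap1r1 is largest under each setting, and Vipr2 is filled only in the reported fit and without the low-count filter.

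Females and males differed most in Oxtr. In IgG it averaged 13.2 ± 12.8 CPM in 3 female libraries and 0.534 ± 0.198 in 2 male ones, and in Musashi IP 24.2 ± 14.0 and 0.682 ± 0.111, with no overlap on either side. Every female library lay above every male one for 16.7% of genes tested within IgG and 16.7% within Musashi IP. Male Oxtr had 5 and 3 counts in IgG and 7 and 7 in Musashi IP, under the filter's minimum count of 10. Oxtr thus entered the sex comparisons through its female libraries alone, and the fold sizes rest on these few male counts. The female excess was 24.0-fold in IgG (log2 4.59 ± 0.92, edgeR adjusted p = 0.0161) and 35.2-fold in Musashi IP (5.14 ± 0.61, 0.00175), where 2.66% and 1.90% of genes tested were called higher in females. In IgG it was 3.42 without lysate 2 and passed, but not without male lysate 3 or 7, which leaves 1 male library (5.01 and 4.26, edgeR adjusted p = 0.227 and 0.264). In RNA recovered from a gland lysate, fewer cells of a type, less RNA per cell and uneven recovery cannot be told apart. Prl, the lactotrope hormone, was at 39113, 15630 and 11997 CPM in the female IgG libraries and 1531 and 3056 in the male ones. Its female excess was 3.27 ± 0.52 in log2, and its part in the Oxtr difference was not tested.

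Sstr5 went the other way. In IgG it averaged 6.02 ± 0.512 CPM in females and 12.3 ± 0.230 in males, 2.05-fold higher in males (female minus male log2 -1.03 ± 0.26, edgeR adjusted p = 0.0479, with 1.84% of genes called higher in males and 4.50% called in either direction). In Musashi IP the means were 12.6 ± 3.48 and 23.9 ± 6.11 (-0.94 ± 0.28, adjusted p = 0.122), where 0.946% of genes were called higher in males. The call in IgG was lost without lysate 3, 5, 6 or 7 (-1.01 to -1.09), and Sstr5 passed in Musashi IP with library totals (-1.13), without the low-count filter (-0.95) or without lysate 6 (-1.14).

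The other receptors did not pass between sexes. In IgG every male library was above every female one for Sstr2, Sstr3, Sstr5, Adcyap1r1 and Vipr2, which was so for 16.9% of genes tested. The female minus male log2 values there were -0.94 ± 0.44 for Sstr2, -0.57 ± 0.26 for Sstr3, -0.43 ± 0.25 for Adcyap1r1 and -1.29 ± 0.48 for Vipr2 (edgeR adjusted p 0.193 to 0.442), and -0.032 ± 0.33 for Sstr1. Sstr3 passed without lysate 2 (-0.83, adjusted p = 0.0328), and in Musashi IP Adcyap1r1 passed without lysate 6 (-1.01, 0.0414, edgeR).

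**Figure D5:**
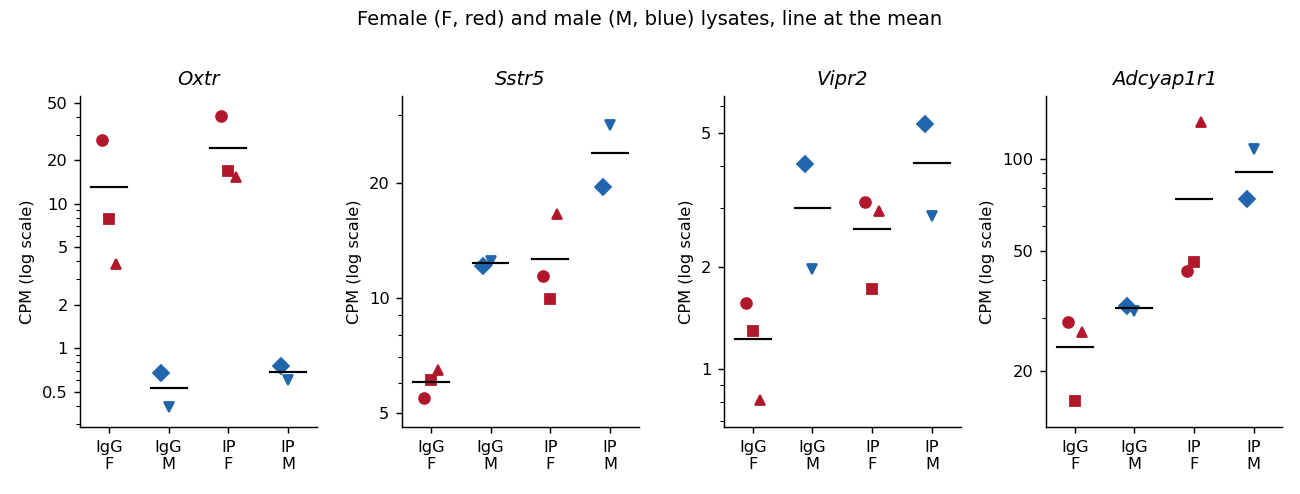
CPM (log axis, its own range in each panel) of Oxtr, Sstr5, Vipr2 and Adcyap1r1 by antibody (IgG or Musashi IP) and sex, with 3 female (circle lysate 2, square 5, triangle 6) and 2 male libraries (diamond 3, inverted triangle 7) and a line at each mean. Female Oxtr lies far above male Oxtr on both sides, and male Sstr5 above female Sstr5.

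The antibody effect itself was not shown to differ between sexes. For the 7 tested receptors the female minus male difference in log2 fold change ran from 0.0029 ± 0.45 (Adcyap1r1) to 0.78 ± 0.82 (Oxtr), with edgeR adjusted p = 1.0 for each. Of 20550 genes 0 (0%) were called in either direction by edgeR, the only tool run on this difference, and 187 genes but 0 receptors had an unadjusted p under 0.05. With SEs from 0.31 to 0.82, differences as large as the effects themselves could go unseen.

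Of the ligands, only Vip had enough counts to test. VIP mRNA rose in Musashi IP (log2 1.1 ± 0.36, edgeR adjusted p = 0.0494), and was at 4.36, 1.82 and 2.32 CPM in female IgG libraries against 0.135 and 0.262 in male ones. Its call was lost under 7 of 14 other settings, among them without lysate 6 (0.58, adjusted p = 0.217). Sst, Cort, Adcyap1, Oxt and Avp were below the filter, with at most 1 count of Sst in any library.

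Other hypothalamic peptide and dopamine receptors had 7 of 11 tested higher and 0 lower, with a median of 0.51, against 25.7% of protein-coding genes and 18.5% of all genes tested called higher. The largest were the ghrelin receptor Ghsr (1.64 ± 0.41), the gonadotropin-releasing hormone receptor Gnrhr (1.61 ± 0.23), the vasopressin receptor Avpr1b (1.46 ± 0.22) and the neuropeptide Y receptor Npy1r (1.34 ± 0.34). Removing lysate 5 or 7 ended the calls of Ghsr and Npy1r (edgeR adjusted p 0.0608 to 0.0807), and the list then had 3 higher. Among 3 tested receptors of the same subfamilies Glp1r, the receptor for glucagon-like peptide, rose (1.59 ± 0.30, edgeR adjusted p = 0.00733), while Sctr (0.0051 ± 0.28) and Gipr (-0.13 ± 0.26) did not pass.

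Downstream, 7 of 8 G protein alpha subunits rose, with a median of 1.14, where 25.7% of protein-coding genes and 18.5% of all genes tested were called higher. They were led by Gna11 (1.90 ± 0.28), of the Gq class, and the inhibitory subunits Gnai1 (1.37 ± 0.31) and Gnai3 (1.27 ± 0.25); Gnaq, also of the Gq class, stood at 1.14 ± 0.20 (edgeR adjusted p 0.00395 to 0.0142 for these 4). Gnas, the stimulatory subunit through which the PACAP and VIP receptors act, did not pass (-0.19 ± 0.12, adjusted p = 0.256). Gnai1 missed the threshold once lysate 5 was removed (adjusted p = 0.0619), and with the length and GC correction 1 subunit of the list was called lower.

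Further genes of the signalling chain are read against the 14202 protein-coding genes tested, of which 25.7% were called higher and 569 lower. Differences between these lists were not tested. Of 8 adenylate cyclases 2 rose, Adcy1 (0.74 ± 0.11) and Adcy5 (0.36 ± 0.10), with a median of -0.075; Adcy5 lost its call with library totals (0.19), after the length and GC correction (0.088), without the block, and without lysate 3, 5 or 7, and Adcy1 without the block (edgeR adjusted p = 0.0679). Of 7 phospholipase C beta and inositol trisphosphate receptor genes 0 passed (edgeR, median -0.16). Under 6 other settings 1 or more were called lower, among them library totals with 3. Of 3 tested GIRK channels, potassium channels opened by inhibitory receptors, 0 passed. Under 3 other settings 1 or more were called higher (1 by DESeq2), and under 3 settings 1 or more lower (1 with library totals). Of 13 arrestins, receptor kinases and scaffold partners 2 rose, Arrb1 (0.63 ± 0.12) and Grk6 (0.41 ± 0.10). Arrb1 lost its call without lysate 5 (edgeR adjusted p = 0.0523), and Grk6 under 6 settings, among them library totals (0.23). In the cyclase list and in the arrestin list, 1 or more genes were called lower under 5 other settings each.

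Of the hormone mRNAs Fshb alone rose among 6 tested (2.28 ± 0.37, edgeR adjusted p = 0.00492), a call lost without the block (0.0649). Of 5 folliculostellate and stem cell markers Sox9 rose (1.24 ± 0.31), but not without lysate 5 or 7, and of 7 endothelial, mural and immune markers Ptprc (-0.66 ± 0.16) and Csf1r (-0.47 ± 0.12) fell, both lost without the block or lysate 5 and Csf1r also without lysate 7. Over all genes 18.5% were called higher and 8.40% lower, and of the 14202 protein-coding genes tested 25.7% higher and 569 lower. Summed over all 7, these last markers ran from 100 to 338 CPM in IgG and 97.8 to 151 in Musashi IP.

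The genes whose profiles over the 10 libraries came closest to each receptor were found by the root mean square distance of log2 CPM, each gene centred on its own mean, among 13105 protein-coding genes. Closest to Adcyap1r1 were Cdc42ep4 and Clic5, both at 0.23 and enriched at 1.63 and 1.55. For Sstr3 they were Bmp6 and Blcap (0.15 and 0.16), for Sstr5 Rab19 and Clip4 (0.17 and 0.21), and for Sstr1 Natd1 and St3gal1 (0.23 each). Sstr2 lay closest to Pls3 and Erap1 (0.21 and 0.22) and Vipr2 to Zbtb16 and Tspan33 (0.21 and 0.24). For Oxtr no gene came so near by this distance: Pdha2 and Cacna1g were at 0.63 and 0.70. Their Pearson correlations with Oxtr were 0.96 and 0.95, within the 0.93 to 0.98 of the other receptors and their closest genes. Pdha2 is a near copy of another gene, so its counts are uncertain. These distances share the libraries and their depth and are a description.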

How the data were processed

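The authors deposited raw counts per Ensembl gene for 10 libraries, with no normalization. Per the submitters' processing notes, the tools were FastQC 0.11.8, Trimmomatic 0.39 and STAR 2.7.1a, on GRCm39. Which program counted the reads, with which annotation, strand setting and treatment of reads with several matches, is not given in the sources used here. Sstr2 and Vipr2 each overlap a gene on the opposite strand, but not in exons.

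Symbols, exon lengths and 3' UTRs came from GENCODE M21 (GRCm38, an older build, so no coordinates are given), which held 52135 of 55416 gene IDs (94.1%). IDs without a match took 0.726% to 4.03% of the counts and were tested too.

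The deposited counts were tested in R 4.3.3 with edgeR 4.0.16 (filterByExpr at a minimum count of 10, TMM, glmQLFit, glmQLFTest, Benjamini-Hochberg adjustment over all genes tested at 0.05). Musashi IP and IgG were compared in all 10 libraries, blocked by lysate (4 residual degrees of freedom), since the protocol splits each lysate; deviations of libraries of the same lysate correlated at 0.523 to 0.778 in lysates 2, 3, 5 and 7, above those of the IgG library with the Musashi IP library of any other lysate, but at 0.186 in lysate 6, whose IgG library reached 0.415 with another. The sex difference of that effect used the same block, and sexes were compared unpaired within each antibody (3 residual degrees of freedom each). SE is the log2 fold change over the square root of F. Ratios of single lysates used a prior count of 2. The protocol speaks of 6 occasions, 1 of which, on males, is not analysed here. The lysates are taken as separate pools from immunoprecipitations on separate occasions; p-values measure the spread between them. No molecular identifiers are described, so counts are not independent molecules.

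Alternatives were library totals, DESeq2 1.42.0 size factors and test, limma 3.58.1 voom, other filters, protein-coding genes only, no block, an offset for transcript length and GC content (mgcv 1.9.3) and each lysate left out. The members and gene lists were chosen with earlier results of these data known; all 8 receptors are described, and from each other list up to 4 called genes of largest change. Gnas and the genes given as not passing were chosen after their values were seen, as were the related genes given by sex.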

Additional observations from a re-analysis of the deposited data

Results flagged for a closer look

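In 24 groups of 5 values examined (CPM in IgG, CPM in Musashi IP and the log2 ratio, for each receptor), 2 had a single lysate far from the others; about 1 in 20 such groups is expected to by chance. Sstr1 in Musashi IP reached 42.7 CPM in lysate 6, with a gap to the next library of 0.797 of the whole range. Oxtr in IgG reached 27.7 CPM in lysate 2, with a gap of 0.725 of the range, in a group that holds both sexes.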

How the results depend on the processing

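The antibody effect kept its direction for all 7 tested receptors under the 14 alternatives chosen at the outset. Adcyap1r1 was called under all 14, Sstr1, Sstr3 and Sstr5 under 13, Oxtr under 12, Vipr2 under 1 and Sstr2 under 0. The number of receptors called higher fell from 6 to 3 without the lysate block, and ranged from 2 (without lysate 5) to 5 when a lysate was left out. Genes called higher and lower were 2407 and 176 without the block, 1676 to 4651 and 187 to 2101 with a lysate left out, and those called lower 4068 with library totals and 3229 at a mean of at least 2 CPM. In the female lysates alone, an alternative chosen after seeing the data, 0 genes higher and 0 lower were called by edgeR, so 0 receptors, while 5328 genes and 6 receptors had an unadjusted p under 0.05.

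Between sexes within IgG, 1165 genes were higher in females and 782 in males without the low-count filter, and 125 to 737 and 47 to 617 with a lysate left out, with 0 to 1 receptors higher in females and 0 to 2 in males. Within Musashi IP, 1050 and 629 were called without the filter, 385 were higher in males with library totals, and 172 to 659 and 47 to 340 were called with a lysate left out. Receptors higher in males there were 1 with library totals, 1 without the filter and 0 to 2 with a lysate left out.

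Signs turned for small sex differences that did not pass. For the antibody effect, female minus male, Adcyap1r1 (0.0029) became -0.11 with library totals and -0.048 without the filter, and Sstr5 (0.11) became -0.0048 with library totals. With a lysate left out Adcyap1r1 ran from -0.45 to 0.49, Sstr5 from -0.12 to 0.28, Sstr1 from -0.13 to 0.70 and Sstr2 from -0.36 to 0.74. Sstr1 between sexes ran from -0.48 to 0.63 within IgG and from -0.12 to 0.75 within Musashi IP. The cause of these changes was not tested. The UAG core stood in every receptor's 3' UTR (4 to 44 times) and in 96.1% of 3' UTRs, and lengths from the longest transcript moved no level by more than its SD. Counts per library were lowest for Vipr1 (2 to 8) and male Oxtr (3 to 7), where counting error is largest.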

Other observations

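Some genes of the signalling lists differed between sexes, as values chosen after they were seen. Adcy8, a calcium-stimulated adenylate cyclase, was at 21.7, 32.0 and 16.5 CPM in the female IgG libraries and 1.35 and 0.656 in the male ones, an excess of 4.52 in log2 (edgeR adjusted p = 1.42e-04), next to 4.59 for Oxtr. The galanin receptor Galr1 had 14, 11 and 10 counts in the female IgG libraries and 0 and 0 in the male ones. Among genes higher in male IgG libraries, the inositol trisphosphate receptor Itpr3 stood at -1.18 (female minus male log2, adjusted p = 0.00582) and the growth hormone-releasing hormone receptor Ghrhr at -1.29 (0.00773, edgeR).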
